A study of Homo sapiens with 18 samples.

Results

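A pair of MCF-10A lines was compared directly with each other, one depleted of XPC (shXPC) and one depleted of ERCC4 (shERCC4), with 3 libraries of each, 6 of the 18 libraries of the series. Of 22031 genes listed, 14454 had at least 1 TPM (a length-corrected share of each library's transcripts) in at least 3 of these 6 libraries and were tested. MCF-10A is an immortalised, non-malignant human mammary epithelial cell line with a basal character. Cells of the shXPC line carried a lentiviral shRNA against XPC, those of the shERCC4 line a lentiviral shRNA against ERCC4, and those of the control line, labelled shCON (shCTRL in the study), a non-target shRNA, all selected as stable lines with puromycin. The study names 1 shRNA clone per gene, so what belongs to the target, to the shRNA and to the line cannot be told apart. The shCON libraries entered no test here and are given as a scale for the 2 depleted lines. Each line was sampled in 3 biological replicates.

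XPC and ERCC4 both act in nucleotide excision repair (NER), which cuts out bulky lesions such as those made by ultraviolet light. XPC senses distorted DNA in the genome at large, and ERCC4 (XPF), bound to ERCC1, is the nuclease that cuts the damaged strand on the 5′ side of the lesion. Stratified epithelial cells divide in the basal layer, where KRT5, KRT14 and the transcription factor TP63 are made. As they leave that layer they stop dividing and switch to suprabasal keratins, and then build a cornified envelope, a sheath of cross-linked proteins such as involucrin and the small proline-rich (SPRR) proteins. Kallikrein peptidases and their inhibitors control how the outermost cells are shed.

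The depleted lines held RNA of basal epithelial markers, while the identity of the lines was not tested. All 11 basal epithelial markers listed for MCF-10A passed the filter, with summed levels of 10091 to 11658 TPM in shXPC, 5119 to 7164 TPM in shERCC4 and 7162 to 7481 TPM in shCON cells. Luminal mammary markers were also present, with sums of 2025 to 2761 TPM in shXPC, 1254 to 1920 TPM in shERCC4 and 1324 to 1530 TPM in shCON cells. Of 13 listed luminal markers 8 passed the filter, 1 was called higher in shXPC and 2 lower (KRT18 and AREG), while ESR1 reached at most 2.25 TPM and KRT19 at most 0.594 TPM in the 6 libraries. The luminal marker called higher was CD24, a surface glycoprotein, at 500.4, 587 and 519 TPM in shXPC cells, against 20.3, 27.95 and 41.01 TPM in shERCC4 cells and 149, 149.9 and 147 TPM in shCON cells (log2 fold change 4.20 ± 0.23 SE, q = 5.67e-10). The fibroblast marker LUM was at 0 TPM in all 6 and the endothelial marker VWF reached at most 0.0969 TPM. The table held 9 fibroblast, 8 immune cell and 4 endothelial markers, of which 3, 6 and 3 passed the filter. Of those, 1 fibroblast marker (FAP), 3 immune cell markers (LAPTM5, CSF1R and ITGAM) and 1 endothelial marker (KDR) were called higher in shXPC. Of the 3 immune cell markers, 2 passed the filter only through shXPC. Here and below, only through a line means at least 1 TPM in all its libraries and in none of the other line. Genes that reached 1 TPM in part of the other line's libraries are not counted, though some needed both lines to pass. The immune cell marker CD68 was called lower. Over all genes tested 10.8% were called higher and 11.3% lower. The part of these markers in the results below was not tested. FAP was not called without shXPC replicate 2 (0.66, q = 0.0623) or shERCC4 replicate 3 (0.32, q = 0.216), nor on the median-of-ratios scale (0.81, q = 0.0571). CD68 was called only in the full set and without shERCC4 replicate 1 among the sets with 1 library left out (-0.64 to -0.46 without each of the others). The summed fibroblast markers ranged from 110.4 to 121 TPM in shXPC, from 109 to 148 TPM in shERCC4 and from 247 to 267 TPM in shCON cells, and the summed endothelial markers from 14.1 to 15.2, from 7.33 to 11.5 and from 8.18 to 11.8 TPM. The summed immune cell markers ranged from 44.1 to 50.3 TPM in shXPC, from 18.9 to 28.1 TPM in shERCC4 and from 44.4 to 61.1 TPM in shCON cells. LAPTM5, a lysosomal membrane protein best known from blood cells, had 19.1, 22.2 and 18.3 TPM in shXPC cells, against 0.652, 0.361 and 0.652 TPM in shERCC4 cells and 5.59, 4.96 and 4.89 TPM in shCON cells.

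In the shERCC4 line, 2 libraries stood apart. In replicate 1 a single clone-named noncoding entry, CTD-2328D6.1, held 26.5% of all TPM, against 4.39% to 7.58% in the other 5 libraries, which lowers the share left for every other gene. Replicate 3 lay nearer to the shXPC libraries on the first principal component (58.2% of the variance), at -31.5, against -48.4 and -51.2 for the other shERCC4 libraries and 42.9 to 44.9 for the shXPC libraries. Correlations of log2 values were 0.970 to 0.972 among shXPC libraries, 0.968 to 0.976 among shERCC4 libraries and 0.912 to 0.933 between the lines. Where these 2 libraries or the scaling decide a value, it is given beside the result.

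At the RNA level the targeted genes themselves separated the 2 lines little. The study showed the knockdown by Western blot and also, against its control, in a heatmap from its RNA sequencing. It reported impaired repair in its depleted lines, and protein was not measured here. XPC had 15.6, 24.7 and 18.8 TPM in shXPC cells, against 18.9, 27.9 and 33.9 TPM in shERCC4 cells and 46.2, 47.1 and 40.6 TPM in shCON cells, and the groups overlapped. Its log2 fold change, given throughout as shXPC minus shERCC4, was -0.43 ± 0.23 (SE, q = 0.121). On the median-of-ratios scale, in which each library is divided by the median ratio of its genes to their geometric mean, it was -0.38 (q = 0.0461), and without shERCC4 replicate 1 it was -0.65 (q = 0.0226). ERCC4 had 6.05, 7.79 and 7.33 TPM in shXPC cells, against 5.05, 5.77 and 5.296 TPM in shERCC4 cells and 12.5, 12.8 and 14.2 TPM in shCON cells. All shXPC values lay above all shERCC4 values, the log2 fold change was 0.36 ± 0.22 (SE, q = 0.152), and on the median-of-ratios scale it was 0.40 (q = 0.0257). As deposited, each gene was below all shCON libraries in both lines. On the median-of-ratios scale over the 9 libraries this held for ERCC4 and not for XPC.

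In all, 3184 genes (22.0% of those tested) were called different, a call being a Storey q value (limma) below 0.05 with a fold larger than 1.5. Of these, 1554 (10.8%) were higher and 1630 (11.3%) lower in shXPC. These shares of all genes tested stand beside every count of list members below, and no list was tested against them. The rises were the larger changes, with 101 genes above 3 on the log2 scale and 42 above 4, while 5 of the falls passed 3. Over all genes tested the median difference was -0.06 on the log2 scale, and -0.02 on the median-of-ratios scale, where 1808 genes (12.5%) were higher and 1501 (10.4%) lower. The balance of the calls moved with shERCC4 replicates 1 and 2. It was 1278 higher and 2311 lower without replicate 1, 1315 and 838 without replicate 2, and 1367 and 2466 with CTD-2328D6.1 left out and the rest rescaled. The plot of all genes tested shows the long upward tail.

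**Figure D1:**
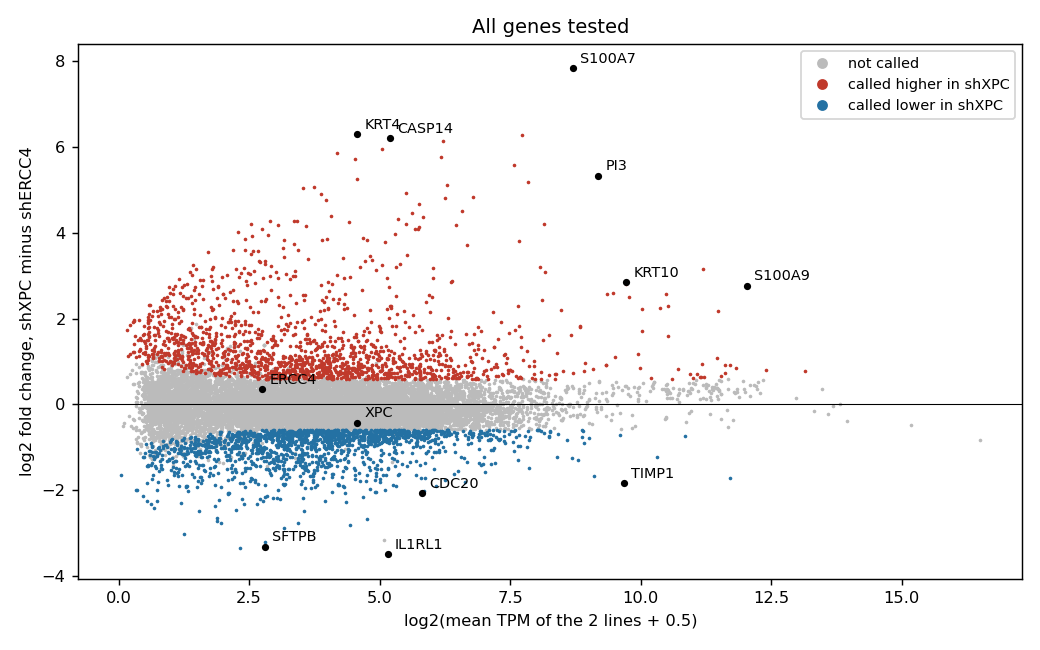
Log2 fold change (shXPC minus shERCC4, vertical axis) against the log2 mean TPM of both lines plus 0.5 (horizontal axis) for the 14454 genes tested, 1 point a gene, coloured by call. S100A7 lies highest at 7.83 and IL1RL1 lowest at -3.49 among the genes labelled.

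Among genes whose lines did not overlap and that averaged at least 5 TPM in either, the 15 with the largest rises were S100A7, KRT4, KLK7, CASP14, SPRR2A, LCN2, KRT1, KLK5, SPRR2E, CRABP2, PI3, TCN1, AZGP1, SPRR1A and KLK14. Most are genes of the suprabasal and cornified layers, of their proteases or of surface defence. S100A7 (psoriasin), an antimicrobial protein of the outer epidermis, had 760.0, 936 and 792 TPM in shXPC cells, against 1.94, 1.98 and 7.41 TPM in shERCC4 cells and 21.2, 20.1 and 25.2 TPM in shCON cells. Every shXPC value was above, and every shERCC4 value below, all shCON values, and the log2 fold change was 7.83 ± 0.33 (SE, q = 3.12e-11). CASP14, the caspase of cornification, had 73.3, 75.7 and 66.5 TPM in shXPC cells, against 0.3098, 0.3602 and 0.853 TPM in shERCC4 cells and 0.784, 1.13 and 0.713 TPM in shCON cells. TCN1, a vitamin B12 carrier of mucosal secretions, had 45.8, 48.2 and 42.9 TPM in shXPC cells, against 0.338, 0.407 and 1.85 TPM in shERCC4 cells and 1.22, 0.917 and 0.283 TPM in shCON cells. Their log2 fold changes were 6.20 and 5.25. In these bulk samples, more cells in a differentiated state and more RNA per such cell cannot be told apart.

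Many cornified envelope genes were higher in shXPC, while several late markers of that structure were near 0 in both lines or not called. Of 31 listed genes in the table, 16 were called higher and the other 15 were not called. Of the 20 that passed the filter, 4 did so only through shXPC, and 12 of the 16 calls were among the others. These 12 are not all free of the filter. SPRR2A, in which only replicate 3 of shERCC4 reached 1 TPM, also needed the shXPC libraries to pass. The median log2 fold change of all 31, fitted with no filter, was 1.04, against -0.02 for all genes fitted that way. IVL, which encodes involucrin, the scaffold laid down first, had 13.05, 13.5 and 13.1 TPM in shXPC cells, against 0.317, 0.249 and 0.617 TPM in shERCC4 cells and 6.26, 8.595 and 8.03 TPM in shCON cells. The 3 groups did not overlap, with shERCC4 lowest and shXPC highest, and the log2 fold change was 3.96 ± 0.27 (SE, q = 8.77e-09). SPRR1A, a small proline-rich cross-bridging protein, had 143, 146 and 158 TPM in shXPC cells, against 1.49, 2.28 and 13.7 TPM in shERCC4 cells and 118, 121 and 127 TPM in shCON cells. Its neighbour SPRR1B had 355, 418 and 356 TPM in shXPC cells, against 15.6, 21.2 and 55.2 TPM in shERCC4 cells and 207, 194 and 196 TPM in shCON cells. Both followed the same order as IVL, with log2 fold changes of 5.12 ± 0.46 (SE, q = 2.86e-07) and 3.80 ± 0.32 (SE, q = 1.06e-07), and shERCC4 replicate 3 was the highest of its line for both. SPRR2A had 139, 148 and 151 TPM in shXPC cells, against 0.732, 0.773 and 5.29 TPM in shERCC4 cells and 6.45, 3.7001 and 6.14 TPM in shCON cells, a log2 fold change of 6.13 ± 0.40 (SE, q = 5.7e-09), and its shERCC4 and shCON values overlapped. PI3 (elafin), an elastase inhibitor that is cross-linked into the envelope, had 1107, 1182 and 1133 TPM in shXPC cells, against 24.04, 31.6 and 28.5 TPM in shERCC4 cells and 66.2, 72.5 and 77.4 TPM in shCON cells, with a log2 fold change of 5.33 ± 0.18 (SE, q = 5.08e-12). CSTA (cystatin A), another envelope component, had 1619.6, 1215 and 1577 TPM in shXPC cells, against 168, 225 and 448 TPM in shERCC4 cells and 112, 127 and 126 TPM in shCON cells. TGM1, the transglutaminase that cross-links these proteins, differed less, at 86.1, 89.4 and 81.9 TPM in shXPC cells, against 26.3, 39.2 and 69.3 TPM in shERCC4 cells and 20.1, 14.2 and 16.1 TPM in shCON cells, with a log2 fold change of 1.04 ± 0.26 (SE, q = 0.00526). Loricrin (LOR), the main protein of the mature envelope, reached 0.163 TPM at most in the 6 libraries, and FLG2 0.193, KPRP 0.294 and CRNN 0.127 TPM. FLG, whose product filaggrin bundles keratin, passed the filter at 0.956 ± 0.148 TPM in shXPC cells and 1.52 ± 0.0638 TPM in shERCC4 cells (SD, n = 3 each) and was not called (log2 fold change -0.48). Its lines did not overlap, with shXPC the lower. HRNR (hornerin), LCE1B and LCE1C, also of the late envelope, passed the filter and were not called (log2 fold changes -0.10, q = 0.454, 0.31, q = 0.32 and 0.57, q = 0.144). CDSN (corneodesmosin), which holds cornified cells together, was called higher at 1.55, 1.55 and 1.57 TPM in shXPC cells, against 0, 0.422 and 0.354 TPM in shERCC4 cells (log2 fold change 1.49 ± 0.40 SE, q = 0.00742). CNFN (cornifelin) was called higher too (log2 fold change 1.12 ± 0.35 SE, q = 0.0181), but not without shXPC replicate 3 (0.69, q = 0.0817) or shERCC4 replicate 1 or 2 (0.78 and 1.11, q = 0.0903 and 0.0942). Transcripts of the SPRR2 genes share sequence, so their values are less certain one by one. In GENCODE release 29, 51.3% of the 31-base words of SPRR2A, 29.9% of those of SPRR2D and 32.4% of those of SPRR2E occur in another gene.

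**Figure D2:**
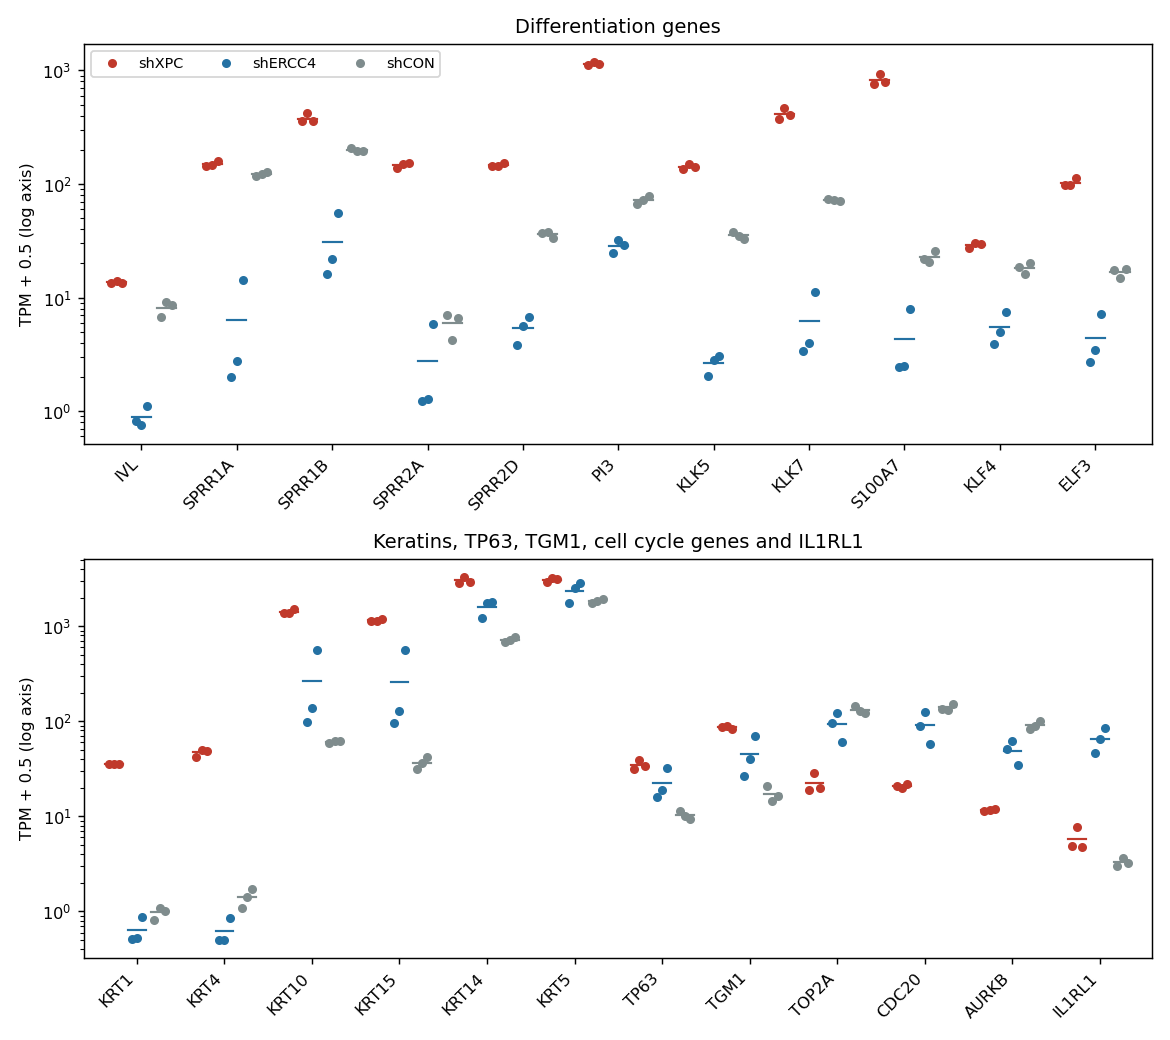
TPM plus 0.5 (log axis) in each library of shXPC (red), shERCC4 (blue) and shCON (grey) for 23 genes, 1 point a library and a bar at the mean of 3. The upper panel holds genes in which shXPC lies highest, and in the lower panel TOP2A, CDC20 and AURKB lie lowest in shXPC and IL1RL1 highest in shERCC4.

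The stretches just before the start of IVL, SPRR1A, SPRR1B and SPRR2A are shown because these genes lie together on chromosome 1 and moved together. CASP14 was added from chromosome 19. SPRR2D, SPRR2E and SPRR3 of the same stretch of chromosome 1 were also called higher and are not shown. The AP-1 motif searched was TGANTCA (N is any base, either strand), the element bound by FOS and JUN dimers, within 250 bases before each start in RefSeq (GRCh38.p14). It occurred in 1801 of 27305 promoters (6.60%), in 8.30% of 976 promoters matched to genes called higher in shXPC, in 3.76% of 1143 matched to genes called lower and in 3.74% of 7541 matched to genes tested and not called. Of the 15 genes with the largest rises, 12 had an entry and 4 held the motif. The promoters with the motif in capitals follow, each 5′ to 3′ on the strand of its gene, which is minus for SPRR2A and plus for the others. They span chr1:152908296-152908545 (IVL), chr1:152983831-152984080 (SPRR1A), chr1:153030953-153031202 (SPRR1B), chr1:153057513-153057762 (SPRR2A) and chr19:15049230-15049479 (CASP14).
IVL: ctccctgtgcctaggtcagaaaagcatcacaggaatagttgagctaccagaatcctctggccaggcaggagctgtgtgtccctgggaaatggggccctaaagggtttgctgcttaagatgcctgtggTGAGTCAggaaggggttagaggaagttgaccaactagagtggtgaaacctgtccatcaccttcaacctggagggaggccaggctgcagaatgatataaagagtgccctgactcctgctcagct
SPRR1A: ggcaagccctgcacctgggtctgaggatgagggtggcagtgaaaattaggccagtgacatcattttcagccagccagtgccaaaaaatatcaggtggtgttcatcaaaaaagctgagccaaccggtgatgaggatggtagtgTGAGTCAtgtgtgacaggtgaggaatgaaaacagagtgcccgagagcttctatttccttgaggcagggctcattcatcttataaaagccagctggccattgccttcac
SPRR1B: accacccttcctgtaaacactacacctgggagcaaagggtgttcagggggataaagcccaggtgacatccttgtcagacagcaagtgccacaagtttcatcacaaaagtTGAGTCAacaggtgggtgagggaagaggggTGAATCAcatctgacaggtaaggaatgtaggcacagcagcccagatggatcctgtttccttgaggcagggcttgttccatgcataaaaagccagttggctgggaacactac
SPRR2A: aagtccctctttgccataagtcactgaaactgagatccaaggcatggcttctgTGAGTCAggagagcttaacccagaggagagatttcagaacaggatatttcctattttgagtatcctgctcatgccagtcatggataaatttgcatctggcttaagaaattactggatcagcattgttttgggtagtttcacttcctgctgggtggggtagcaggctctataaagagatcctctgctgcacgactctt
CASP14: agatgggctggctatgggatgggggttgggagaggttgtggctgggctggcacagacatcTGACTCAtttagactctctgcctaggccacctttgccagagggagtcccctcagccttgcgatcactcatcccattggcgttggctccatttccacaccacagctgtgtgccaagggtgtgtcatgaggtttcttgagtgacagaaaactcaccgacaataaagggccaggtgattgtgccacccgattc

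The motif begins 123 bases before the start of IVL and 108 before that of SPRR1A. SPRR1B holds it at 141 and at 111 bases, SPRR2A at 197 and CASP14 at 190. All 5 genes were picked with their values known, from genes called higher in shXPC, so that their calls and matches together are no result. A match of these letters is a description, and binding was not measured.

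Suprabasal keratinocyte genes were mostly higher in shXPC. Of 23 in the table, 16 were called higher in shXPC and the other 7 were not called. Of the calls, 8 were of genes that passed the filter only through shXPC. The median of all 23 with no filter was 2.73. KRT1, the first keratin of the suprabasal layers, had 35.1, 35.4 and 34.9 TPM in shXPC cells, against 0.0182, 0.0215 and 0.364 TPM in shERCC4 cells and 0.318, 0.599 and 0.5104 TPM in shCON cells, so that both other lines were under 1 TPM (log2 fold change 5.85 ± 0.26 SE, q = 6.93e-11). KRT10, its pairing partner, behaved otherwise, with 1392, 1366 and 1507 TPM in shXPC cells, against 96.97, 139 and 564 TPM in shERCC4 cells and 58.9, 61.8 and 61.1 TPM in shCON cells. Both depleted lines were above shCON, shERCC4 replicate 3 was far above its line's other libraries, and the log2 fold change was 2.85 ± 0.42 (SE, q = 6.95e-05). KRT4, a keratin of wet stratified epithelia such as the oesophagus, had 41.2, 49.9 and 48.6 TPM in shXPC cells, against 0, 0 and 0.358 TPM in shERCC4 cells and 0.597, 0.917 and 1.23 TPM in shCON cells. KRT13, with which it pairs, had 17.8, 18.5 and 18.9 TPM in shXPC cells, against 1.101, 0.438 and 1.44 TPM in shERCC4 cells and 3.801, 3.13 and 3.17 TPM in shCON cells. Both were above all shCON libraries in shXPC and below them all in shERCC4. DSG1, the desmosomal cadherin of the upper layers, had 9.69, 12.9 and 8.73 TPM in shXPC cells, against 0.0499, 0.0588 and 0.165 TPM in shERCC4 cells and 0.155, 0.341 and 0.1996 TPM in shCON cells. KRTDAP, a secreted differentiation-associated peptide, had 26.5, 27.4 and 29.8 TPM in shXPC cells, against 0.991, 0 and 0.653 TPM in shERCC4 cells and 1.499, 0.815 and 1.03 TPM in shCON cells. Its neighbour SBSN (suprabasin) had 50.8, 44.6 and 54.9 TPM in shXPC cells, against 3.49, 3.405 and 2.37 TPM in shERCC4 cells and 29.03, 30.1 and 39.9 TPM in shCON cells. CRABP2, which carries retinoic acid to its receptor, had 356, 386 and 371 TPM in shXPC cells, against 3.88, 5.95 and 16.5 TPM in shERCC4 cells and 30.6, 36.1 and 33.6 TPM in shCON cells, with a log2 fold change of 5.57 ± 0.33 (SE, q = 1.85e-09). CALML3, a calmodulin-like protein, was the tested member not called (log2 fold change 0.44, q = 0.196).

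Genes of the barrier lipids, which fill the space between cornified cells, differed least of the differentiation lists. Of 20 in the table, 5 were called higher and the other 15 were not called, with 5 of the 13 tested negative. Of the calls, 3 were of genes that passed the filter only through shXPC, and the median of all 20 with no filter was 0.28. PLA2G4E, a cytosolic phospholipase, had 4.12, 4.398 and 2.78 TPM in shXPC cells, against 0.138, 0.165 and 0.486 TPM in shERCC4 cells (log2 fold change 2.49 ± 0.35 SE, q = 4.3e-05). ABCA12, which loads lipids into lamellar granules, and ELOVL4, which lengthens fatty acids, were not called (log2 fold changes 0.24, q = 0.246 and -0.45, q = 0.17).

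Among the keratins of the basal layer and of stressed epithelium, 7 of 9 in the table were called higher in shXPC. KRT5, the main basal type II keratin, was not, at 2910.3, 3201 and 3153 TPM in shXPC cells, against 1769, 2491 and 2813 TPM in shERCC4 cells and 1753, 1838 and 1917 TPM in shCON cells, although its lines did not overlap (log2 fold change 0.41 ± 0.25 SE, q = 0.141). KRT14, its partner, had 2829, 3303 and 2947 TPM in shXPC cells, against 1232, 1769 and 1804 TPM in shERCC4 cells and 678, 715 and 764 TPM in shCON cells, a log2 fold change of 0.94 ± 0.24 (SE, q = 0.00545), and was above shCON in both lines. KRT15, also basal, had 1124, 1137 and 1186 TPM in shXPC cells, against 96.4, 128 and 558 TPM in shERCC4 cells and 31.3, 35.6 and 41.2 TPM in shCON cells, again above shCON in both lines and, among shERCC4 libraries, highest in replicate 3. KRT6B, a keratin of wounded and hyperproliferative epidermis, had 161, 174 and 165 TPM in shXPC cells, against 5.85, 7.01 and 15.8 TPM in shERCC4 cells and 68.04, 63.7 and 68.2 TPM in shCON cells, a log2 fold change of 4.19 ± 0.27 (SE, q = 4.73e-09). KRT16 had 1049.9, 1186 and 1128 TPM in shXPC cells, against 142, 209 and 224 TPM in shERCC4 cells and 257, 266 and 279 TPM in shCON cells. KRT17, which is made in the same settings, had 1450.2, 1763 and 1537 TPM in shXPC cells, against 438, 630.3 and 406 TPM in shERCC4 cells and 1717, 1717 and 1816 TPM in shCON cells. Their log2 fold changes were 2.57 and 1.71. KRT6A, KRT6B and KRT6C share 44.0%, 58.3% and 51.9% of their 31-base words with other genes. The simple-epithelial keratin KRT18 was lower in shXPC, at 115, 120.5 and 117 TPM in shXPC cells, against 177, 246 and 223 TPM in shERCC4 cells (log2 fold change -0.86, q = 0.00197), while KRT8, its partner, was not called (log2 fold change 0.13, q = 0.371). TP63 had 31.2, 39.01 and 33.3 TPM in shXPC cells, against 15.6, 18.6 and 31.9 TPM in shERCC4 cells and 10.8, 9.68 and 8.84 TPM in shCON cells, with overlapping lines and a log2 fold change of 0.69 ± 0.24 (SE, q = 0.0253), and was no longer called without shERCC4 replicate 1 (0.49, q = 0.0662) or replicate 2 (0.61, q = 0.121), nor without shXPC replicate 2 (0.60, q = 0.0628) or with CTD-2328D6.1 left out (0.58, below the fold threshold).

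Genes of the junctions that hold the outer layers together were higher in shXPC as well. Of 11 desmosome genes 8 were called higher and 1 lower, and 2 of the 8 passed the filter only through shXPC. DSG3 had 227, 278 and 242 TPM in shXPC cells, against 44.4, 58.6 and 108 TPM in shERCC4 cells and 42.9, 45.8 and 41.6 TPM in shCON cells. DSC2 had 59.3, 74.3 and 60.1 TPM in shXPC cells, against 10.1, 13.7 and 21.6 TPM in shERCC4 cells and 23.9, 25.4 and 24.4 TPM in shCON cells. PERP, a p63 target needed for desmosomes in mice, had 643, 783 and 690.0 TPM in shXPC cells, against 142, 199 and 289 TPM in shERCC4 cells and 226, 220.1 and 215 TPM in shCON cells, with a log2 fold change of 1.80 ± 0.24 (SE, q = 2.03e-05). PKP2, the plakophilin of simple epithelia and heart, was the exception. It had 12.3, 15.4 and 13.9 TPM in shXPC cells, against 27.99, 35.8 and 48.7 TPM in shERCC4 cells and 26.3, 23.7 and 22.97 TPM in shCON cells (log2 fold change -1.38, q = 0.000125). Of 18 tight junction genes in the table, 7 were called higher and the other 11 were not called. CLDN4 had 82.6, 83.5 and 88.5 TPM in shXPC cells, against 2.49, 3.56 and 7.63 TPM in shERCC4 cells and 11.9, 12.01 and 13.8 TPM in shCON cells. CLDN1, the main barrier claudin of the epidermis, had 125, 165 and 133 TPM in shXPC cells, against 11.7, 14.5 and 40.2 TPM in shERCC4 cells and 29.9, 30.7 and 29.9 TPM in shCON cells. OCLN (occludin) had 27.7, 35.5 and 27.2 TPM in shXPC cells, against 4.07, 5.51 and 7.03 TPM in shERCC4 cells and 5.97, 5.13 and 5.59 TPM in shCON cells, a log2 fold change of 2.36 ± 0.22 (SE, q = 4.74e-07). CDH1 (E-cadherin) had 97.6, 121 and 92.1 TPM in shXPC cells, against 26.4, 38.9 and 42.0 TPM in shERCC4 cells and 49.3, 58.6 and 45.2 TPM in shCON cells. The genes listed for basal adhesion, cadherins among them, were not higher as a group. Of 16 in the table, 2 were called higher and 3 lower, with a median of -0.17 among the 15 tested. CDH13 was lower (log2 fold change -0.93, q = 0.00141), while ITGA6 and ITGB4, the hemidesmosome integrin pair, were not called (log2 fold changes 0.02, q = 0.513 and -0.38, q = 0.0959).

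Kallikrein-related peptidases and their SPINK inhibitors stood 29.6 times higher in summed TPM in shXPC. The 15 genes in the table summed to 1001, 1128 and 1041 TPM in shXPC cells, against 21.8, 27.2 and 58.0 TPM in shERCC4 cells and 193, 193 and 202 TPM in shCON cells. Of these genes 13 were called higher and the other 2, KLK4 and SPINK7, were not called. Of the 14 tested, 7 passed the filter only through shXPC, and the median of all 15 with no filter was 3.55. KLK7, a chymotrypsin-like protease that degrades corneodesmosomes, had 376, 462 and 406 TPM in shXPC cells, against 2.91, 3.49 and 10.7 TPM in shERCC4 cells and 73.9, 72.2 and 69.96 TPM in shCON cells. KLK5, the trypsin-like protease that activates it, had 135, 149 and 139.8 TPM in shXPC cells, against 1.53, 2.299 and 2.58 TPM in shERCC4 cells and 37.4, 34.4 and 32.5 TPM in shCON cells. Their log2 fold changes were 6.28 ± 0.32 (SE, q = 2.9e-10) and 5.77 ± 0.20 (SE, q = 5.08e-12), and for both all shERCC4 values were below shCON. KLK10 had 165, 195 and 188 TPM in shXPC cells, against 4.11, 9.297 and 11.03 TPM in shERCC4 cells and 51.1, 43.2 and 55.9 TPM in shCON cells. KLK14 had 23.5, 28.2 and 24.6 TPM in shXPC cells, against 0.04803, 0.175 and 0.747 TPM in shERCC4 cells and 2.33, 2.904 and 2.66 TPM in shCON cells. SPINK5 (LEKTI), the inhibitor of KLK5 and KLK7, had 27.5, 31.02 and 23.8 TPM in shXPC cells, against 2.66, 2.14 and 6.35 TPM in shERCC4 cells and 1.23, 1.45 and 2.01 TPM in shCON cells, a log2 fold change of 2.85 ± 0.29 (SE, q = 1.17e-06). Among serpins of clade B, 7 of 11 in the table were called higher, 1 of them a gene that passed the filter only through shXPC, and the other 4 were not called. SERPINB2 (PAI-2), which is cross-linked into the envelope, had 82.1, 91.9 and 87.6 TPM in shXPC cells, against 1.38, 1.69 and 5.41 TPM in shERCC4 cells and 5.08, 5.25 and 6.05 TPM in shCON cells (log2 fold change 4.92, q = 4.55e-09). SERPINB7 had 29.2, 35.7 and 29.1 TPM in shXPC cells, against 0.9001, 1.48 and 0.752 TPM in shERCC4 cells and 2.97, 4.97 and 4.94 TPM in shCON cells. SERPINB3 and SERPINB4, the squamous cell carcinoma antigens, had log2 fold changes of 3.83 and 4.08 and share 39.0% and 33.9% of their words with each other. SERPINB5 (maspin) differed by 0.69 ± 0.19 (SE, q = 0.0098), and was not called without shXPC replicate 2 (0.63, q = 0.0507), without shERCC4 replicate 1 or with CTD-2328D6.1 left out (both 0.56, below the fold threshold). The relative SERPINB6 was not called (log2 fold change -0.02, q = 0.512).

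**Figure D3:**
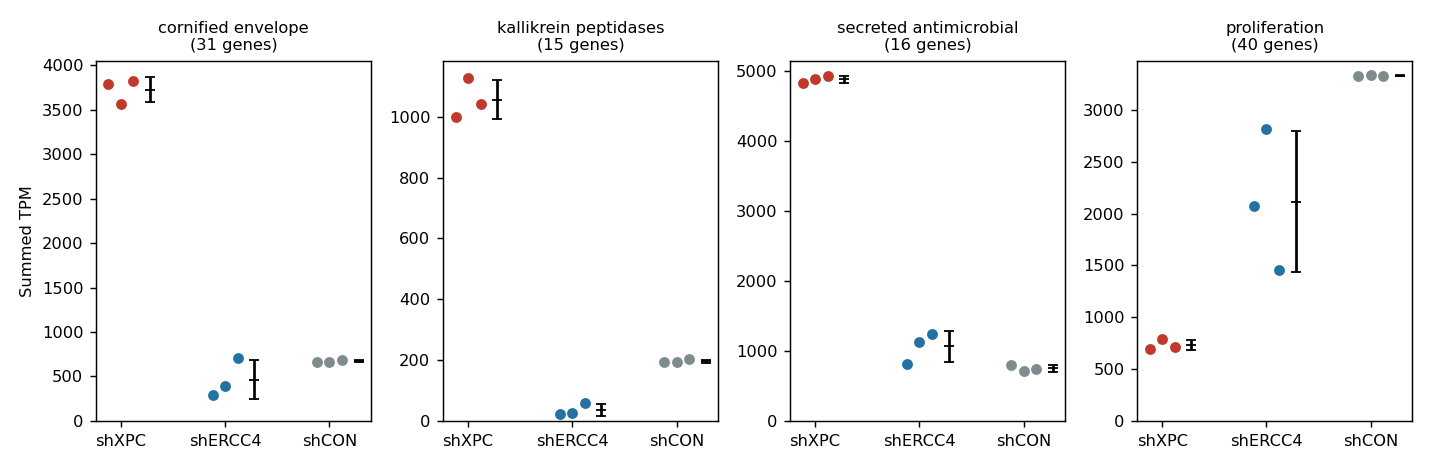
Summed TPM of the cornified envelope, kallikrein, secreted antimicrobial and proliferation genes in the table (1 panel each, axes from 0) in each library of shXPC, shERCC4 and shCON. Bars give the mean ± SD of 3 libraries. The first 3 sums lie highest in shXPC, and that of proliferation lies lowest in shXPC and, as deposited, highest in shCON.

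Members of the S100 family, small calcium-binding proteins, were mostly higher in shXPC. Of 18 in the table, 11 were called higher and 1, S100A3, lower, while with no filter 9 were called higher. Of the 11, 1 passed the filter only through shXPC. S100A3 overlapped between the lines and was not called on the median-of-ratios scale, nor without shXPC replicate 2 or 3 or shERCC4 replicate 2 or 3 (-0.58 to -0.48, q = 0.0867 to 0.115). S100A8 and S100A9, which pair as calprotectin, were both abundant. S100A8 had 4486, 3299 and 4504 TPM in shXPC cells, against 239, 339 and 1171 TPM in shERCC4 cells and 69.7, 74.98 and 78.7 TPM in shCON cells. S100A9 had 7156, 6889.9 and 7468 TPM in shXPC cells, against 606, 808 and 2398 TPM in shERCC4 cells and 169, 163 and 189 TPM in shCON cells. Their log2 fold changes were 3.15 ± 0.40 (SE, q = 1.58e-05) and 2.76 ± 0.37 (SE, q = 2.71e-05). Both lines were above shCON for both genes, and shERCC4 replicate 3 was far above its line's other libraries. S100P had 190.1, 142 and 233 TPM in shXPC cells, against 9.26, 11.4 and 24.1 TPM in shERCC4 cells and 13.1, 10.6 and 20.2 TPM in shCON cells (log2 fold change 3.71, q = 3.35e-08). S100A2 and S100A6 were not called (log2 fold changes -0.16, q = 0.41 and -0.34, q = 0.2). S100A7 shares 25.9% of its words, mostly with S100A7A.

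Secreted antimicrobial genes followed. Of 16 in the table, 10 were called higher, which was every member that passed the filter, 3 of them only through shXPC. The median of all 16 with no filter was 2.17. SLPI, a leukocyte protease inhibitor of mucosal fluids, was the most abundant, at 4604, 4670.1 and 4704 TPM in shXPC cells, against 799.5, 1119.8 and 1222 TPM in shERCC4 cells and 776, 683 and 722 TPM in shCON cells (log2 fold change 2.18 ± 0.24 SE, q = 2.66e-06). LCN2 (lipocalin 2), which binds bacterial siderophores, had 65.8, 62.1 and 64.9 TPM in shXPC cells, against 0.218, 0.4296 and 1.21 TPM in shERCC4 cells and 8.93, 7.09 and 5.66 TPM in shCON cells (log2 fold change 5.95 ± 0.27 SE, q = 8.9e-11). LTF (lactoferrin), an iron-binding protein of milk and secretions, had 58.7, 69.7 and 60.9 TPM in shXPC cells, against 2.84, 3.59 and 6.74 TPM in shERCC4 cells and 0, 0.0271 and 0.0477 TPM in shCON cells. It was near 0 in shCON, so that both lines stood above it. PGLYRP3, a peptidoglycan recognition protein, had 12.8, 13.8 and 14.3 TPM in shXPC cells, against 0.0884, 0.209 and 0.413 TPM in shERCC4 cells and 1.57, 1.87 and 1.35 TPM in shCON cells. DEFB1 (beta-defensin 1) had 20.7, 12.9 and 20.6 TPM in shXPC cells, against 1.36, 1.86 and 2.25 TPM in shERCC4 cells.

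Inflammatory genes were higher in shXPC in part. Of 38 NF-kB, chemokine and acute phase genes in the table, 18 were called higher and 1, PTX3, lower (log2 fold change -0.78, q = 0.0359). PTX3 was not called without any one of the shXPC libraries, or without shERCC4 replicate 2 or 3 (-0.84 to -0.65, q = 0.0547 to 0.132). The neutrophil chemokine CXCL1 had 312, 353 and 327 TPM in shXPC cells, against 60.3, 80.6 and 62.2 TPM in shERCC4 cells and 125, 129.9 and 126 TPM in shCON cells. IL8 (CXCL8), another, had 57.6, 70.6 and 57.8 TPM in shXPC cells, against 8.85, 11.2 and 7.04 TPM in shERCC4 cells and 15.2, 16.1 and 14.1 TPM in shCON cells. In both, shXPC was above shERCC4 without overlap. CCL20 had 23.1, 19.7 and 26.5 TPM in shXPC cells, against 3.27, 5.52 and 5.77 TPM in shERCC4 cells and 15.4, 18.8 and 12.2 TPM in shCON cells (log2 fold change 2.17, q = 2.39e-06). SAA1, an acute phase serum amyloid, had 2547, 2112 and 2653 TPM in shXPC cells, against 366, 509 and 659 TPM in shERCC4 cells and 155, 183 and 211 TPM in shCON cells. SAA2, its close relative, had 1575, 1189 and 1682 TPM in shXPC cells, against 160.1, 230.2 and 251 TPM in shERCC4 cells and 31.6, 33.7 and 36.9 TPM in shCON cells. Both were above shCON in both lines, and 54.2% and 24.3% of their words occur in other genes. NFKBIZ, an inducible IkB protein, had a log2 fold change of 2.01, q = 1.47e-05, while 12 tested members were not called. Among these were NFKB1 and RELB (log2 fold changes -0.40, q = 0.091 and 0.40, q = 0.116).

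The interleukin-1 family held both directions. Of 15 genes in the table, 5 were called higher and 1 lower, and 1 of the 5 passed the filter only through shXPC. IL1A, an alarmin kept ready in keratinocytes, had 33.9, 39.8 and 35.3 TPM in shXPC cells, against 8.05, 9.93 and 6.79 TPM in shERCC4 cells and 20.04, 17.6 and 16.1 TPM in shCON cells. IL1RN, which blocks the IL-1 receptor, had 15.6, 19.7 and 21.2 TPM in shXPC cells, against 1.36, 2.26 and 6.36 TPM in shERCC4 cells and 5.94, 4.68 and 5.801 TPM in shCON cells. IL36G, a cytokine of inflamed skin, had 4.74, 2.65 and 3.57 TPM in shXPC cells, against 0, 0 and 0.334 TPM in shERCC4 cells and 0.423, 0.5204 and 0 TPM in shCON cells. Their log2 fold changes were 2.09, 2.55 and 2.78. IL1RL1 (ST2), the receptor of IL-33, had the largest fall of the genes named by the rule. It had 4.34, 7.31 and 4.26 TPM in shXPC cells, against 46.03, 64.3 and 84.8 TPM in shERCC4 cells and 2.48, 3.14 and 2.73 TPM in shCON cells, a log2 fold change of -3.49 ± 0.25 (SE, q = 1.49e-08), with shERCC4 far above both other lines. Its ligand IL33 was not called (log2 fold change -0.05, q = 0.504).

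Interferon-stimulated genes were mixed. Of 40 in the table, 16 were called higher and 1, IFI44L, lower, while on the median-of-ratios scale 18 were called higher and IFI44L was not called. Of the 16, 3 passed the filter only through shXPC, and fitted with no filter 14 were called higher. IFI44L also lost its call without shXPC replicate 1 or 3 or shERCC4 replicate 2 or 3 (-0.64 to -0.49, q = 0.0569 to 0.0982). IFI27 had 78.9, 86.4 and 115 TPM in shXPC cells, against 4.91, 3.67 and 2.81 TPM in shERCC4 cells and 19.4, 23.01 and 18.1 TPM in shCON cells (log2 fold change 4.46 ± 0.22 SE, q = 2.73e-10). IFIT1, which binds foreign RNA, had 15.03, 17.3 and 15.9 TPM in shXPC cells, against 1.72, 2.72 and 2.68 TPM in shERCC4 cells and 3.15, 2.68 and 2.31 TPM in shCON cells (log2 fold change 2.55 ± 0.23 SE, q = 2.86e-07). STAT2, a signalling factor of the pathway, and the interferon-induced genes MX1 and ISG15 were not called, with log2 fold changes of 0.45, 0.11 and 0.33. Of 15 genes of MHC class I presentation 3 were called higher and 2 lower. HLA-E had 157, 168 and 151 TPM in shXPC cells, against 46.1, 63.3 and 69.9 TPM in shERCC4 cells and 90.2, 88.7 and 93.2 TPM in shCON cells (log2 fold change 1.42, q = 3.31e-05). PSMB9, an immunoproteasome subunit, was lower in shXPC at 5.95, 5.47 and 9.21 TPM in shXPC cells, against 12.9, 19.2 and 11.6 TPM in shERCC4 cells (log2 fold change -1.03, q = 0.00377).

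Transcription factors of epithelial differentiation were higher in shXPC in 14 of 24 cases in the table, and the other 10 were not called. Of the 14, 2 passed the filter only through shXPC. KLF4, which drives barrier formation in mice, had 26.8, 29.7 and 29.4 TPM in shXPC cells, against 3.42, 4.51 and 6.96 TPM in shERCC4 cells and 17.98, 15.7 and 19.6 TPM in shCON cells, a log2 fold change of 2.47 ± 0.23 (SE, q = 4.93e-07). ELF3, an epithelial ETS factor, had 98.1, 97.3 and 112 TPM in shXPC cells, against 2.21, 2.96 and 6.65 TPM in shERCC4 cells and 17.1, 14.3 and 17.5 TPM in shCON cells (log2 fold change 4.66 ± 0.28 SE, q = 1.71e-09). GRHL1, a grainyhead factor of the epidermis, had 13.6, 14.1 and 14.9 TPM in shXPC cells, against 0.948, 1.47 and 1.95 TPM in shERCC4 cells and 4.02, 2.81 and 2.51 TPM in shCON cells. ZNF750, an epidermal zinc finger factor, had 10.1, 12.5 and 11.7 TPM in shXPC cells, against 0.739, 0.958 and 1.58 TPM in shERCC4 cells and 1.86, 1.404 and 1.29 TPM in shCON cells. OVOL1 had 9.41, 9.03 and 8.401 TPM in shXPC cells, against 0.2697, 1.16 and 1.16 TPM in shERCC4 cells and 1.198, 5.12 and 3.03 TPM in shCON cells. On both scales KLF4, ELF3 and GRHL1 were above all shCON libraries in shXPC and below them all in shERCC4. CEBPA, CEBPB and HOPX were not called (log2 fold changes 0.48, q = 0.112, -0.45, q = 0.0968 and 0.06, q = 0.491). Of 18 Notch genes in the table, 16 were tested, 5 called higher and 1 lower, beside 10.8% and 11.3% of all genes tested. NOTCH3 had a log2 fold change of 1.03, q = 0.00227. HES2, a HES family repressor, had 61.9, 63.8 and 57.1 TPM in shXPC cells, against 8.15, 14.99 and 14.2 TPM in shERCC4 cells and 16.1, 15.97 and 16.7 TPM in shCON cells (log2 fold change 2.29, q = 6.79e-07). HEY1, a Notch target, was lower at 0.618, 0.373 and 0.3199 TPM in shXPC cells, against 2.08, 2.34 and 1.96 TPM in shERCC4 cells and 1.02, 1.61 and 1.59 TPM in shCON cells (log2 fold change -1.50, q = 0.00317). It passed the filter only through shERCC4. HES1, another Notch target, was not called (log2 fold change 0.51, q = 0.0596). Of 17 AP-1 and immediate early genes in the table, 5 were called higher and 2 lower. JUN had 28.6, 31.3 and 31.1 TPM in shXPC cells, against 10.7, 14.6 and 14.1 TPM in shERCC4 cells. MAFF, a small MAF factor, had 39.3, 36.8 and 37.7 TPM in shXPC cells, against 9.74, 12.3 and 14.6 TPM in shERCC4 cells. FOSL1 had 11.5, 14.6 and 12.2 TPM in shXPC cells, against 24.3, 29.02 and 20.7 TPM in shERCC4 cells. Their log2 fold changes were 1.19, 1.61 and -0.92. Of 20 genes around the EGF receptor in the table, 18 were tested, 6 called higher and 5 lower, beside the same 10.8% and 11.3%. Among the ligands, EPGN had 395, 442 and 398 TPM in shXPC cells, against 112, 159 and 171 TPM in shERCC4 cells. AREG, another ligand, had 89.7, 90.8 and 90.95 TPM in shXPC cells, against 163, 238 and 172 TPM in shERCC4 cells, so that these 2 ligands differed in opposite directions. ETV4 and ETV5, ETS factors induced by ERK signalling, were lower, with log2 fold changes of -2.19 ± 0.25 (SE, q = 4.35e-06) and -1.60 ± 0.23 (SE, q = 5.49e-05), and EGFR was not called (log2 fold change 0.09, q = 0.419).

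**Figure D4:**
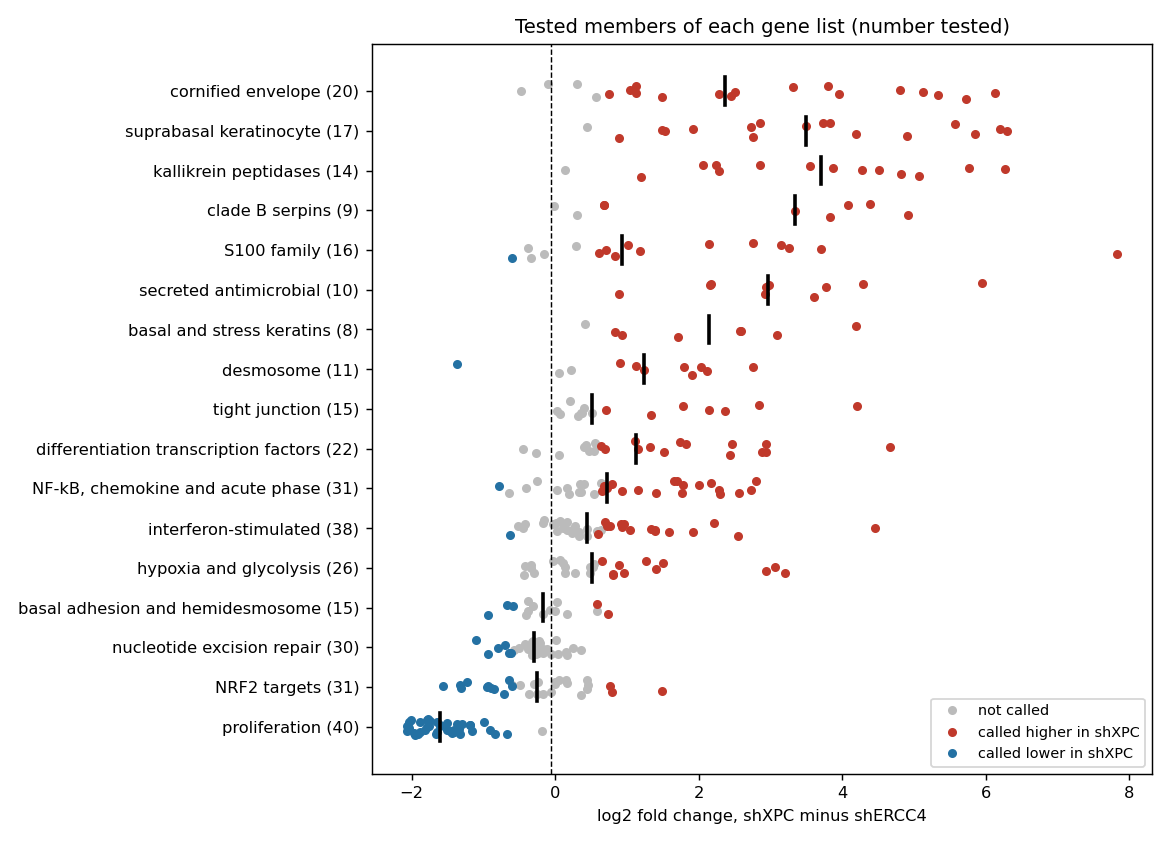
Log2 fold change (shXPC minus shERCC4, horizontal axis) of the members of 17 gene lists that passed the filter, 1 point a gene, with a black bar at the median of the list and a dashed line at the median of all genes tested (-0.06). Proliferation genes lie on the left around -1.60, and most members of the cornified envelope, suprabasal and kallikrein lists lie on the right.

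The listed proliferation genes were lower in shXPC with 1 exception, while replication-dependent histone genes went both ways. All 40 listed genes passed the filter, 39 were called lower, and MCM7 was not called (log2 fold change -0.18, q = 0.297). The median was -1.60, and -1.56 on the median-of-ratios scale with the same count of 39. Summed, they held 693, 788 and 713 TPM in shXPC cells, against 2078, 2813 and 1452 TPM in shERCC4 cells and 3327, 3340.3 and 3328 TPM in shCON cells. As deposited, both depleted lines were below shCON in the sum, shXPC at 22.0% of it and shERCC4 at 63.5%. On the median-of-ratios scale over the 9 libraries shXPC was at 30.7% of it, with 820.1, 828 and 824 scaled TPM in its 3 libraries. There shERCC4 replicates 1 and 2 reached 2672 and 2746 scaled TPM, against 2724, 2660.1 and 2679 in shCON libraries, and only replicate 3, at 1443, lay below all of these. CDC20, the activator of the anaphase-promoting complex, had 20.2, 19.5 and 21.3 TPM in shXPC cells, against 89.4, 126 and 57.4 TPM in shERCC4 cells and 135, 132 and 150.0 TPM in shCON cells (log2 fold change -2.06 ± 0.24 SE, q = 4.92e-06). TOP2A, which untangles replicated DNA, had 18.5, 28.3 and 19.5 TPM in shXPC cells, against 94.8, 122 and 60.6 TPM in shERCC4 cells and 145, 128 and 121 TPM in shCON cells. AURKB, the kinase of the chromosomal passenger complex, had 10.9, 11.1 and 11.3 TPM in shXPC cells, against 50.1, 61.2 and 34.03 TPM in shERCC4 cells and 81.8, 88.6 and 99.5 TPM in shCON cells. CDC6, which licenses replication origins, had 3.86, 5.13 and 4.03 TPM in shXPC cells, against 17.3, 24.03 and 14.3 TPM in shERCC4 cells and 45.1, 42.3 and 43.3 TPM in shCON cells (log2 fold change -1.95 ± 0.23 SE, q = 7.19e-06). shERCC4 replicate 3, in which the summed cornified envelope and suprabasal genes were highest of its line, had the lowest value of its line for these 4 genes. MKI67 had 5.62, 7.42 and 4.74 TPM in shXPC cells, against 28.9, 36.4 and 15.9 TPM in shERCC4 cells and 60.97, 60.9 and 50.9 TPM in shCON cells. CCNB1 (cyclin B1) had 38.6, 44.1 and 42.6 TPM in shXPC cells, against 158, 208 and 98.4 TPM in shERCC4 cells and 139, 149 and 147 TPM in shCON cells. Of 52 replication-dependent histone genes in the table, 6 were called higher and 8 lower, with a median of -0.24 among the 35 tested, and 3 and 7 with no filter. Of the 35, 1 passed the filter only through shERCC4. The sum of the 52 genes was 1.27 times as high in shXPC. HIST1H3G had 2.53, 0.253 and 1.61 TPM in shXPC cells, against 8.85, 10.6 and 4.01 TPM in shERCC4 cells (log2 fold change -2.20 ± 0.43 SE, q = 0.000902). HIST1H1C, a linker histone, was called higher (log2 fold change 0.72 ± 0.20 SE, q = 0.00829), but not without shERCC4 replicate 1 (0.56, below the fold threshold).

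The element TTTGAA (the cell cycle homology region bound by repressor complexes of cell cycle genes, searched on both strands over the same 250 bases) occurred in 13.6% of all promoters. The share was 13.3% among genes called lower in shXPC, 9.02% among genes called higher and 7.77% among genes tested and not called. It is shown in capitals for CDC20 and TOP2A because they are among the largest falls of the list. No match was found in the windows of AURKB and CDC6. The stretches span chr1:43358731-43358980 on the plus strand and chr17:40417897-40418146 on the minus strand.
CDC20: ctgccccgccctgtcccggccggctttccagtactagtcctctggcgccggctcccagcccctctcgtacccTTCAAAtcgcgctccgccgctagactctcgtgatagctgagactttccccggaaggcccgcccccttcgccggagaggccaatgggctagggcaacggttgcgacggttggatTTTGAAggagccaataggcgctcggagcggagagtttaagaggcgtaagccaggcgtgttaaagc
TOP2A: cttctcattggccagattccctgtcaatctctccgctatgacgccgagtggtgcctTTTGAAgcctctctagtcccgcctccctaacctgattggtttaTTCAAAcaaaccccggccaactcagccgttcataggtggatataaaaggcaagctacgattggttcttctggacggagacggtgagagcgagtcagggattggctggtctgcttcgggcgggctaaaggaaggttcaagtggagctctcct

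Cyclin-dependent kinase inhibitors did not move as one. Of 19 G1 regulators 4 were called higher and 5 lower, beside 10.8% and 11.3% of all genes tested. CDKN1C (p57) had 24.8, 25.01 and 31.1 TPM in shXPC cells, against 5.44, 8.45 and 8.08 TPM in shERCC4 cells and 26.05, 25.997 and 24.9 TPM in shCON cells (log2 fold change 1.83 ± 0.22 SE, q = 6.71e-06). CDKN1A (p21) had 152, 165 and 165 TPM in shXPC cells, against 85.98, 124 and 77.2 TPM in shERCC4 cells and 255, 276 and 297 TPM in shCON cells (log2 fold change 0.77 ± 0.20 SE, q = 0.00632). CDKN1B and CCND1 were not called (log2 fold changes -0.26, q = 0.214 and -0.42, q = 0.0855), and CDKN2C was lower (log2 fold change -1.30, q = 0.000273). Of 24 p53 targets 4 were called higher and 1 lower, beside the same 10.8% and 11.3%. MDM2, BAX, FAS and ZMAT3 were not called, with log2 fold changes of -0.28, -0.27, 0.23 and -0.20, while GADD45A had 73.7, 66.6 and 74.3 TPM in shXPC cells, against 26.3, 34.5 and 43.2 TPM in shERCC4 cells (log2 fold change 1.06, q = 0.00066). Of 30 NER genes 6 were called lower and the other 24 were not called, with a median of -0.29. The 6 were RPA2, GTF2H2, GTF2H3, CCNH, LIG1 and POLD1, several of which also serve replication. RPA2 had 15.6, 14.9 and 15.7 TPM in shXPC cells, against 26.6, 39.8 and 35.95 TPM in shERCC4 cells and 46.9, 50.6 and 47.9 TPM in shCON cells (log2 fold change -1.11 ± 0.20 SE, q = 0.00041). CCNH was not called on the median-of-ratios scale (-0.57, below the fold threshold), nor without shXPC replicate 1 or 3 or shERCC4 replicate 2 or 3 (-0.60 to -0.56). GTF2H3 lost its call without the same libraries (-0.60 to -0.52), GTF2H2 without shXPC replicate 1 or 3 or shERCC4 replicate 2 (-0.66 to -0.56), and LIG1 without shERCC4 replicate 2 (-0.54). XPA, ERCC5, ERCC6 and ERCC1, the partner of ERCC4, were not called, with log2 fold changes of 0.25, 0.16, -0.32 and -0.11.

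Matrix and protease genes went both ways. Of 31 mesenchymal and matrix genes in the table, 24 were tested, 5 called higher and 7 lower, and with no filter 3 and 5. Of the 24, 1 passed the filter only through shERCC4. Over all genes tested 10.8% were called higher and 11.3% lower. The mean summed TPM of the list was 894 in shXPC and 934 in shERCC4. FN1 (fibronectin) had 16.3, 23.5 and 19.97 TPM in shXPC cells, against 37.7, 56.7 and 25.7 TPM in shERCC4 cells and 793, 743 and 728 TPM in shCON cells (log2 fold change -0.93, q = 0.00723), so that the gap between the 2 lines was small beside that of either to shCON. Without shERCC4 replicate 2, FN1 was not called (-0.65, q = 0.0663). COL4A2 had 3.701, 2.02 and 1.51 TPM in shXPC cells, against 9.04, 16.6 and 5.89 TPM in shERCC4 cells and 51.98, 44.8 and 51.2 TPM in shCON cells. LOXL2, a collagen cross-linking oxidase, had 19.4, 18.5 and 19.4 TPM in shXPC cells, against 7.29, 7.34 and 7.89 TPM in shERCC4 cells. MMP7 (matrilysin), an epithelial protease, had 70.2, 77.7 and 71.6 TPM in shXPC cells, against 2.803, 3.64 and 7.12 TPM in shERCC4 cells and 8.57, 8.398 and 7.36 TPM in shCON cells (log2 fold change 3.97 ± 0.25 SE, q = 4.62e-09). PLAU (urokinase) had 44.8, 45.4 and 46.5 TPM in shXPC cells, against 8.11, 10.6 and 10.1 TPM in shERCC4 cells. Its receptor PLAUR had 55.6, 58.3 and 69.9 TPM in shXPC cells, against 9.75, 13.8 and 13.97 TPM in shERCC4 cells. Both were called higher, with log2 fold changes of 2.20 and 2.26. TIMP1, an inhibitor of metalloproteinases, went the other way, at 342, 369 and 358 TPM in shXPC cells, against 1006, 1393 and 1471 TPM in shERCC4 cells and 1838, 1749 and 1818 TPM in shCON cells (log2 fold change -1.84 ± 0.21 SE, q = 4.66e-06). Of 23 genes in the table for YAP, the TEAD factors and their targets, 21 were tested. Of these, 1 was called higher, the factor TEAD3, and 4 lower. CTGF had 2.09, 2.06 and 3.19 TPM in shXPC cells, against 4.46, 5.78 and 10.2 TPM in shERCC4 cells and 116, 122 and 126 TPM in shCON cells, another gene whose main gap was to shCON, and YAP1 was not called (log2 fold change 0.01, q = 0.526).

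Metabolic and stress genes differed in part. Of 32 NRF2 targets in the table, 11 were called lower and 3 higher in shXPC. NQO1, a quinone reductase, had 62.7, 67.6 and 63.5 TPM in shXPC cells, against 179.9, 245 and 160.4 TPM in shERCC4 cells and 642, 688 and 689 TPM in shCON cells (log2 fold change -1.56 ± 0.20 SE, q = 1.2e-05). TXNRD1, thioredoxin reductase, had 32.5, 25.99 and 28.3 TPM in shXPC cells, against 67.9, 88.6 and 63.6 TPM in shERCC4 cells and 375, 407 and 399 TPM in shCON cells (log2 fold change -1.32 ± 0.19 SE, q = 6.4e-05). NFE2L2 itself was not called (log2 fold change 0.17, q = 0.335). Of 26 hypoxia and glycolysis genes 11 were called higher and the other 15 were not called. Of the 11, 2 passed the filter only through shXPC, and fitted with no filter 8 were called higher. NDRG1, which is induced by hypoxia and by differentiation, had 425, 557 and 468 TPM in shXPC cells, against 37.5, 55.7 and 66.9 TPM in shERCC4 cells and 107, 109 and 85.8 TPM in shCON cells (log2 fold change 3.20 ± 0.22 SE, q = 8.97e-09). CA9, a carbonic anhydrase controlled by HIF-1, had 15.4, 17.05 and 17.1 TPM in shXPC cells, against 1.2003, 1.45 and 2.84 TPM in shERCC4 cells and 0.792, 0.312 and 0.2502 TPM in shCON cells. The glucose transporter SLC2A1 had 118, 132 and 127 TPM in shXPC cells, against 35.2, 52.3 and 56.3 TPM in shERCC4 cells. The glycolytic enzymes PGK1, ENO1 and LDHA were not called (log2 fold changes -0.04, -0.33 and 0.27). Of 79 cytosolic ribosomal protein genes 8 were called higher, 13 on the median-of-ratios scale, and 33 had all shXPC values above all shERCC4 values, against 16.5% of all genes tested. They took up 20.1% to 22.7% of the TPM in shXPC and 12.4% to 19.8% in shERCC4 libraries. The 12.4% was in shERCC4 replicate 1, where CTD-2328D6.1 held 26.5% of the TPM, and replicates 2 and 3 were at 17.8% and 19.8%. Of 25 genes of the unfolded protein and integrated stress responses 5 were called higher and 6 lower. Of 32 cholesterol and fatty acid synthesis genes in the table, 2 were called lower. Over all genes tested 10.8% were called higher and 11.3% lower.

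Several of the largest falls in shXPC were of genes with high levels in shERCC4 relative to shCON. ADH1B, an alcohol dehydrogenase, had 4.505, 4.75 and 3.33 TPM in shXPC cells, against 18.5, 24.98 and 70.5 TPM in shERCC4 cells and 3.13, 4.71 and 3.98 TPM in shCON cells (log2 fold change -2.80, q = 1.12e-05). CAMK2B, a calmodulin-dependent kinase subunit, had 2.09, 1.82 and 2.09 TPM in shXPC cells, against 10.3, 13.3 and 32.4 TPM in shERCC4 cells and 1.47, 0.591 and 0.8196 TPM in shCON cells (log2 fold change -2.77, q = 5.57e-06). In both, shERCC4 lay above all other libraries and highest in replicate 3. SFTPB, a lung surfactant protein, had 0.643, 0.8202 and 0.857 TPM in shXPC cells, against 10.3, 13.4 and 12.98 TPM in shERCC4 cells and 6.03, 4.56 and 4.36 TPM in shCON cells (log2 fold change -3.31 ± 0.25 SE, q = 3.55e-08). MYBPC1, a myosin-binding protein, had 1.28, 2.97 and 0.973 TPM in shXPC cells, against 10.96, 15.01 and 19.5 TPM in shERCC4 cells and 8.98, 6.72 and 4.97 TPM in shCON cells. ACOX2, a peroxisomal oxidase of bile acid synthesis, had 2.62, 3.76 and 2.797 TPM in shXPC cells, against 15.6, 22.3 and 20.3 TPM in shERCC4 cells and 4.502, 5.18 and 4.24 TPM in shCON cells. In these 3, shXPC was below and shERCC4 above all shCON libraries as deposited. ACOX2 lost that order on the median-of-ratios scale. Of the 15 genes with the largest falls, 8 were pseudogenes or clone-named entries. For one of them, RP11-241F15.9, a shXPC library at 0 TPM lay beside others at 16.7 and 25.9 TPM, and it was not called without shERCC4 replicate 1 or 2 (-2.82 and -2.67, q = 0.0858 and 0.133) or on the median-of-ratios scale (-2.59, q = 0.0723).

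Set against shCON, the depleted lines were on opposite sides of it in part of the genes and on the same side in others. The order was not tested against shCON. Counted as all 3 libraries of one line above and all 3 of the other below the 3 shCON libraries, 316 genes tested (2.19%) had shXPC above and shERCC4 below, and 41 (0.284%) the reverse. The median gene was lower than in shCON by 0.43 in shXPC and by 0.39 in shERCC4 on the log2 scale. On the median-of-ratios scale over the 9 libraries, which takes this shift out, the counts were 383 (2.65%) and 252 (1.74%). Of the 1554 genes called higher in shXPC, 308 were of the first kind as deposited (2.13% of all genes tested), and 39 of the genes called lower were of the second (0.270%). Of the genes called higher, 127 were above shCON in both lines, as were 551 of all genes tested (3.81%), and 152 were below it in both. Among the 31 cornified envelope genes in the table, 8 were of the first kind, as were 9 of 15 kallikrein genes, 7 of 23 suprabasal genes and 5 of 24 differentiation transcription factors. On the median-of-ratios scale these were 8, 7, 6 and 4. KRT10, KRT14, KRT15, TGM1, S100A8 and S100A9 were above shCON in both lines on both scales, and on the median-of-ratios scale 15.4% of all genes tested were. No proliferation gene had the lines on opposite sides of shCON on either scale. As deposited 30 of 40 were below shCON in both lines (39.9% of all genes tested). On the median-of-ratios scale this fell to 17 (16.6%), so for many of them the same side depends on the scaling. The word opposite therefore holds for involucrin, the SPRR1 genes, SPRR2D, SPRR2E, elafin, KLK5, KLK7, KLK10 and KLK14 on both scales, and not for KRT10, calprotectin or the cell cycle genes.

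Genes called higher in shXPC lay close together at several places of the genome (GENCODE release 29, GRCh38). In the stretch of chromosome 1 from 151982915 to 153632039, which holds the epidermal differentiation complex and the S100 genes, 19 of 28 genes tested were called higher and 1 lower. The kallikrein stretch of chromosome 19 (50819148 to 51084245) had 11 of 12 called higher. In the type I keratin stretch of chromosome 17 (40654665 to 41624842) 11 of 16 were called higher and 2 lower, and in the type II stretch of chromosome 12 (52168996 to 52952901) 7 of 13 were called higher and 1 lower. The clade B serpin stretch of chromosome 18 (63476761 to 64019779) had 6 of 7 called higher, and the stretch of chromosome 20 with the WAP domain genes SLPI, PI3 and WFDC2 (45109452 to 45791932) had 10 of 16. Over all genes tested 10.8% were called higher and 11.3% lower. The bounds of the stretches were set by genes of these families. Many of these genes are members of the lists above, so the counts are no separate result.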

How the data were processed

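RNA from 3 libraries each of shXPC, shERCC4 and shCON cells was sequenced after ribosomal RNA depletion. The authors quantified reads with kallisto against hg38 (the submitters' processing notes give version 0.43.1) and deposited TPM per gene. The transcript annotation and how transcripts were summed to genes are not given in the sources used here. TPM keep no depth, so counting error is unknown. They are shares of a library, so an abundant RNA lowers all others.

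Values were analysed as log2(TPM + 0.5) with limma 3.58.1 (R 4.3.3, moderated test with an intensity trend, two-sided) on the 6 libraries, for genes with at least 1 TPM in 3 of them. P-values were turned into Storey q values over all 14454 genes, and a call needed q under 0.05 and a fitted fold above 1.5, and for XPC and ERCC4 q alone. Fold changes on this scale understate the change of low genes. The filter edge lay between C9orf131 (1.00019 TPM in the library that decides the filter) and RP11-351O1.4 (0.999993 TPM). P-values measure the spread between these libraries of 1 line per target.

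Members, lists and tests were chosen with earlier results of these data known. Genes named by rule were XPC and ERCC4, the 15 largest changes each way with no overlap and a mean of at least 5 TPM in either line, up to 4 called members per list by q (up to 4 more by size for differentiation, keratin and defence lists), the 12 largest changes on opposite sides of shCON, and 13 markers. Other list members named in the text were picked after their values were seen. Lists are described by counts and medians, with no test. Positions came from GENCODE release 29 (12810 of 14454 genes matched), and promoters from RefSeq (GRCh38.p14), with 135 of the 200 genes of the rule matched. Alternatives covered the pseudocount, filter, scaling, sample set, weights, p adjustment, replicate block and leaving out each library. Python 3.11.15, pandas 2.3.3 and matplotlib 3.10.9 were used for summaries and figures, and the fit was tested on simulated data.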

Additional observations from a re-analysis of the deposited data

Results flagged for a closer look

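All shXPC libraries lay above, and all shERCC4 libraries below, the 3 shCON libraries in 316 genes tested (2.19%), of which 308 were called. The 12 below were picked for that order, a call, a mean of at least 5 TPM in either line and the largest changes. Their order is therefore no result of its own. This difference in direction was not tested against shCON. The log2 fold changes of shXPC minus shERCC4 were 7.83 for S100A7, 6.29 for KRT4, 6.28 for KLK7, 5.95 for LCN2, 5.77 for KLK5 and 5.72 for SPRR2E. They were 5.57 for CRABP2, 5.33 for PI3, 5.12 for SPRR1A, 5.07 for KLK14, 4.81 for SPRR2D and 4.76 for A2ML1. All 12 kept this order on the median-of-ratios scale over the 9 libraries, a scaling chosen after seeing the data.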

How the results depend on the processing

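Higher and lower calls kept within 1.5 times the reported 1554 and 1630 except as follows, and no result reversed. With the fold threshold inside the test, 442 genes were called higher and 224 lower (66.4% higher, against 48.8% as reported), and the S100 list had 6 called higher. In that setting 66 of 198 named genes lost their call, among them TGM1, KRT14, CDKN1A, KRT18, AREG and PSMB9. With no filter on low values 16 of the 198 lost it. With CTD-2328D6.1 left out 2466 genes were called lower (35.7% of calls were higher), and with array weights, which gave shERCC4 replicate 1 a weight of 0.236, 37.5% of calls were higher. Leaving out 1 library in turn gave 1278 to 1987 genes higher and 838 to 2311 lower. The lowest and highest counts lower came without shERCC4 replicates 2 and 1 (61.1% and 35.6% of calls higher). The XPC log2 fold change, -0.43 as reported, passed the threshold on the median-of-ratios scale (-0.38, q = 0.0461), with quantile normalization (-0.38, q = 0.0424), with CTD-2328D6.1 left out (-0.55, q = 0.0174), in the fit of 18 libraries (-0.43, q = 0.0311), with array weights (-0.64, q = 0.0104) and on the median-of-ratios scale without shERCC4 replicate 1 (-0.49, q = 0.0393), and ranged from -0.65 to -0.24 when 1 library was left out. The ERCC4 log2 fold change, 0.36 as reported, passed on the median-of-ratios scale (0.40, q = 0.0257), with quantile normalization (0.36, q = 0.0302), and on the median-of-ratios scale without shERCC4 replicate 1 (0.47, q = 0.0383) or 3 (0.34, q = 0.0477). The cause of these changes was not tested. Same-numbered libraries did not deviate together (correlations 0.0316, -0.0451 and -0.0031), so the numbers do not pair them. With a replicate block 1632 genes were higher and 1701 lower, and all 198 named genes kept their call. Combining the median-of-ratios scale with leaving out a shERCC4 library was chosen after seeing the data.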

Other observations

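On chromosome 19, 15.3% of the genes tested were called higher in shXPC and 4.81% lower, against 10.8% and 11.3% of all genes tested. Among processed pseudogenes 11.8% were called higher and 4.50% lower.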
